A study of Mus musculus with 4 samples.

Results

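The mitosis and kinetochore genes are a set of 38 mouse genes, chosen by name, whose products carry a cell from entry into mitosis to the separation of its daughter cells. A gene counted as measured where a transcript cluster, the set of probes that the array summarizes into 1 value, carried its symbol and no other. This held for 37 of the 38 genes, each with 1 such cluster, out of 22180 genes with a cluster of their own among 41345 clusters. *Ccnb1*, which encodes cyclin B1, had none, and 3 clusters shared by a gene of the set and other symbols were not used. Hair follicle stem cells (HFSCs), the CD34+CD49f+ cells of the bulge, had been sorted from the telogen back skin of *Hes1*eKO mice and of control littermates at postnatal day 70 by the sample labels, and the study's text places them in telogen after a depilation. *Hes1*eKO mice carried K14-Cre and *Hes1* fx/fx, and the littermates carried *Hes1* fx/fx or *Hes1* fx/wt. The floxed line came from ICR and had been through 3 generations of back-crossing to C57bl/6, and the K14-Cre line was kept in C57bl/6. Each genotype had 2 samples, each a pool of 2 mice and each read on 1 Affymetrix Mouse Gene ST array.

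K14-Cre acts in keratinocytes of the epidermis and its appendages, so the deletion is not limited to the bulge. The sort discarded dead cells and cells with high forward and side scatter. The sorted cells carried the bulge genes *Krt15*, with values of 11.23 to 11.63 on the 4 arrays (log2, as are all values below unless a sum is named), and *Cd34*, with 9.85 to 11.24. *Hes1*, the Notch effector gene targeted in these mice, had 5.34 and 5.04 in control and 5.05 and 4.37 in *Hes1*eKO HFSCs, which did not pass the threshold given below (log2 fold change −0.48, standard error 0.30). The position of its probes with respect to the floxed exons is unknown here. *Xist*, a gene of the inactive X chromosome, was high on the arrays of replicate number 1 (8.80 in control and 8.95 in *Hes1*eKO) and low on those of number 2 (2.93 and 3.17), so that this sex-linked gene followed the replicate number in both genotypes. The Y-linked genes *Eif2s3y* (6.36 and 6.09), *Uty* (5.60 and 5.25) and *Kdm5d* (4.21 and 4.90) were lower on number 1. On number 2 they had 7.32 and 7.15, 6.45 and 6.57, and 5.66 and 5.75. On number 1 *Eif2s3y* and *Uty* still stood above the array medians. The sex of the pooled mice was not tested. The array medians were 4.36 to 4.39.

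In a dividing cell, cyclin-dependent kinase 1 with its A and B cyclins starts mitosis, Polo-like and Aurora kinases build the spindle, and the kinetochore, a protein complex on the centromere, ties each chromosome to spindle microtubules. A checkpoint holds back the anaphase promoting complex until all chromosomes are attached, after which separase parts the sister chromatids and the central spindle directs cytokinesis. Bulge stem cells rest through telogen and divide mainly around the onset of hair growth, and transcripts of mitotic genes are made mostly in G2 and M phase, so that their level in a cell population is widely read as a sign of cycling cells.

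Many mitotic genes share promoter elements that bind the NF-Y factor (the CCAAT box) and the MuvB complexes (the cell cycle homology region, CHR). Promoters of 30 of the 37 genes were matched by symbol in RefSeq (build GRCm38.p6), as windows of 300 bases from 250 bases before to 50 bases after the annotated start, and both motifs were searched on both strands. The letters CCAAT stood in 23 of the 30 promoters (76.7%), against 37.9% of the first listed promoters of all 27025 genes and 39.0% of those of 17491 protein-coding genes. The letters TTTGAA of the CHR stood in 24 of the 30 (80.0%), against 18.1% of all and 16.5% of protein-coding genes. Both were present in 21 (70.0%), against 7.12% and 6.68%. Between 100 bases before and 50 bases after the start, TTTGAA stood in 23 of the 30 promoters (76.7%), against 8.08% of all genes and 6.94% of protein-coding genes.

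The motifs also had an order. In all 21 promoters with both, the TTTGAA nearest the 3′ end lay 3′ of a CCAAT box, with a median of 35.0 bases from its first base to that of the nearest such box (range 9 to 153), whereas this held for 53.8% of the 1925 promoters with both motifs over all genes, with a median of 63.0 bases where it did. Of the 30 TTTGAA matches in the set, 23 read in the direction of the gene, and the 56 CCAAT matches were split into 27 in the direction of the gene and 29 against it. In 1 promoter of the set the motifs overlapped by a base. The promoters of 5 genes are shown because their genes stand at the ends of the results below, those of *Mki67* and *Top2a* (lower in *Hes1*eKO HFSCs, with both motifs), *Cdk1* and *Ccnb2* (2 genes of mitotic entry whose arrays spread more) and *Nusap1* (lower, with neither motif). Capitals mark CCAAT and TTTGAA or their reverse complements, and each window is read 5′ to 3′ on the strand of the gene.
Mki67 (chr7:135716330-135716629, minus strand): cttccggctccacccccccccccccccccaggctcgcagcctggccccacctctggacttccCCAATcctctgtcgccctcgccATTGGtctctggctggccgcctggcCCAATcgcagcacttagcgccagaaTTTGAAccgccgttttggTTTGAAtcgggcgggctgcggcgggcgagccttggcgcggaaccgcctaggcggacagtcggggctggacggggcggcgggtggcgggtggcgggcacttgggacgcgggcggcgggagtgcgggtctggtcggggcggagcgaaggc
Top2a (chr11:99024140-99024439, minus strand): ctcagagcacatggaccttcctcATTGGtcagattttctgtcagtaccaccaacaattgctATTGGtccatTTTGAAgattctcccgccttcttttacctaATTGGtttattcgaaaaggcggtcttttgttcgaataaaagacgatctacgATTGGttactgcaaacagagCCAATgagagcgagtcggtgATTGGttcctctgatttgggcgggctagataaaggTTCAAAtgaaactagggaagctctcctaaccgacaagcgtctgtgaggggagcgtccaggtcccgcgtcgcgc
Cdk1 (chr10:69352863-69353162, minus strand): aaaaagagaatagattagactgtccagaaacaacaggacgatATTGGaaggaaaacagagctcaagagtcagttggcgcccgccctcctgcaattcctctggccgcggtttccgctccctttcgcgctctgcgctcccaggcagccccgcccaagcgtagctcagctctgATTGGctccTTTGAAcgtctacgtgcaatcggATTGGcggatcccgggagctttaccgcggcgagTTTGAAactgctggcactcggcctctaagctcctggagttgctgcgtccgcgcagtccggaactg
Ccnb2 (chr9:70421505-70421804, minus strand): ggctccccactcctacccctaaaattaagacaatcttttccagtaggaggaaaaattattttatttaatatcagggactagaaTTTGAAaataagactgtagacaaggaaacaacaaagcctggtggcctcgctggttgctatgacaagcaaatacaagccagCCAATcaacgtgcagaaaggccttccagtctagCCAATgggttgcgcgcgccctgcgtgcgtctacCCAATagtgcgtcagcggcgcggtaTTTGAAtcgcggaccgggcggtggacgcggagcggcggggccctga
Nusap1 (chr2:119618048-119618347, plus strand): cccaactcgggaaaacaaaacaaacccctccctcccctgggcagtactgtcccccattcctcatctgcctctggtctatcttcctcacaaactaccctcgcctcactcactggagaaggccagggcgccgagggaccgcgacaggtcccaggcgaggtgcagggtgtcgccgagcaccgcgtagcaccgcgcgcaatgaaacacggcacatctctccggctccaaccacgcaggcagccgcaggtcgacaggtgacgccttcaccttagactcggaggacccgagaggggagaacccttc

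**Figure D1:**
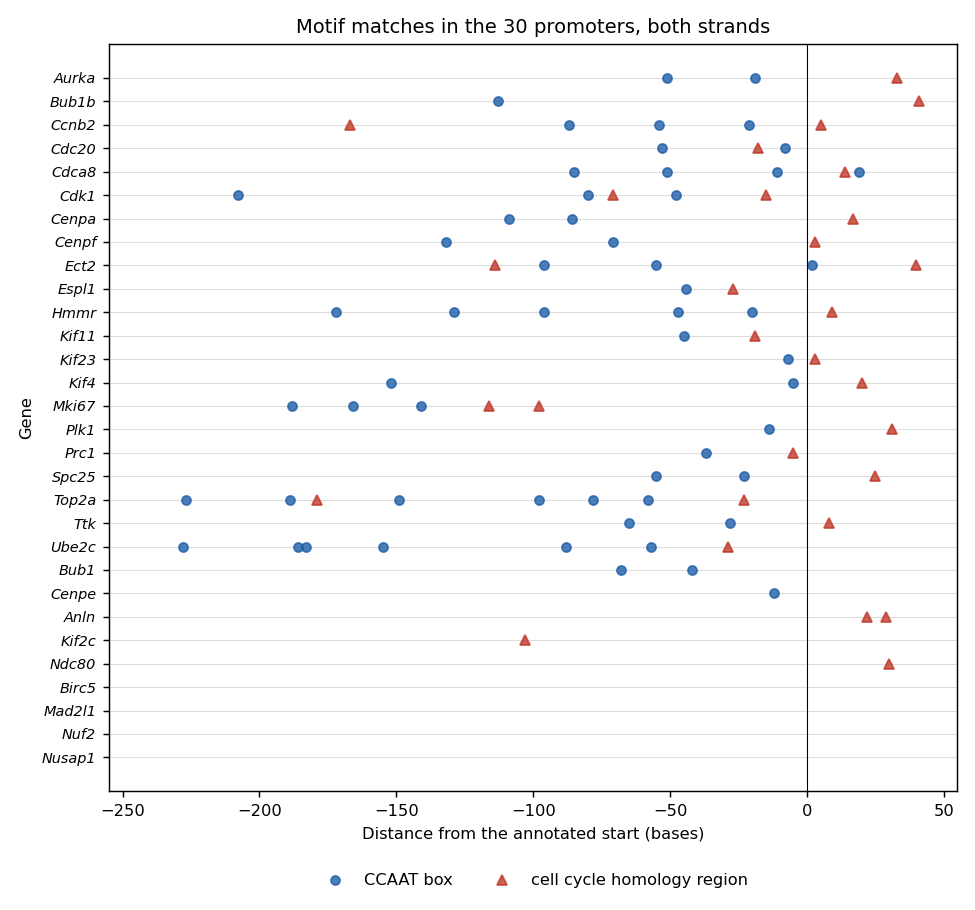
Positions of CCAAT boxes (circles) and TTTGAA letters of the cell cycle homology region (triangles) in the promoters of 30 mitosis and kinetochore genes, on the x axis as distance from the annotated start in bases (negative before it), with 1 gene per line. Most triangles lie near the start, the rightmost triangle lies to the right of a circle in all 21 promoters with both, *Ccnb2* and *Ect2* also have a triangle to the left of all their circles, and 4 promoters (*Birc5*, *Mad2l1*, *Nuf2* and *Nusap1*) hold neither.

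The genotypes were compared to ask whether HFSCs without *Hes1* differ in the transcripts of dividing cells. Of the 37 genes, 4 were lower in *Hes1*eKO HFSCs past the study threshold, a fold change above 1.5 with an unadjusted p under 0.05 by limma, and 0 were higher. These were *Mki67*, *Top2a*, *Ccna2* and *Nusap1*, 10.8% of the set, where 0.875% of all genes passed in this direction and 0.789% in the other. The study applied its cutoffs to statistics from Partek, so these calls by limma are not the study's own. By adjusted p (Benjamini-Hochberg over all clusters) 0 of the 37 passed, with 0.990 as their lowest value, as did 0 of all clusters, whose lowest adjusted p was 0.829, while 5 genes of the set had an unadjusted p under 0.05 with a lower value (13.5%, against 1.22% of all genes). An exact two-sided permutation test of 2 arrays against 2 cannot go below a p of 0.333, and a lower value in these sorted pools cannot tell fewer cycling cells from less RNA per cell.

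*Mki67* encodes Ki-67, the nuclear antigen that coats mitotic chromosomes and is the usual marker of cycling cells. In control HFSCs it stood at 8.07 and 7.47, and in *Hes1*eKO HFSCs at 6.83 and 6.52. Both *Hes1*eKO values lay below both control values, and the log2 fold change was −1.10 (standard error 0.28, 95% confidence interval −1.86 to −0.33), which is 2.14-fold lower. *Top2a*, which encodes the topoisomerase that untangles sister chromatids, had 5.06 and 4.72 in control and 4.18 and 4.14 in *Hes1*eKO HFSCs. Its genotypes did not overlap either, and it was 1.65-fold lower (log2 fold change −0.73, standard error 0.20, interval −1.27 to −0.18).

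*Ccna2*, the gene of cyclin A2, which partners the cyclin-dependent kinases in S phase and at mitotic entry, had the largest log2 fold change of the 37 genes. Its control values of 5.97 and 5.84 were close to each other, and its *Hes1*eKO values of 4.37 and 5.12 were spread more widely, below both of them. It was 2.24-fold lower (log2 fold change −1.16, standard error 0.31, interval −1.98 to −0.34). *Nusap1*, which encodes a microtubule-bundling protein of the spindle, had 5.27 and 5.08 in control and 4.71 and 4.33 in *Hes1*eKO HFSCs. It was 1.58-fold lower without overlap (log2 fold change −0.66, standard error 0.22, interval −1.24 to −0.07).

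These 4 calls depended on single arrays and on the test. None held with the methods' t-test, nor without control replicate 1 (*Mki67* −0.79, *Top2a* −0.56, *Ccna2* −1.10 and *Nusap1* −0.56), where *Nuf2* (−0.75) and *Prc1* (−0.83) passed instead. Without *Hes1*eKO replicate 2, *Mki67* (−0.94), *Top2a* (−0.71) and *Nusap1* (−0.47) no longer passed, without *Hes1*eKO replicate 1 *Top2a* (−0.75) did not, and without control replicate 2 *Ccna2* (−1.22) and *Nusap1* (−0.75) did not. The direction of the 4 genes was negative in each of these fits. No other outcome was possible, because both *Hes1*eKO values of each gene lay below both control values.

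**Figure D2:**
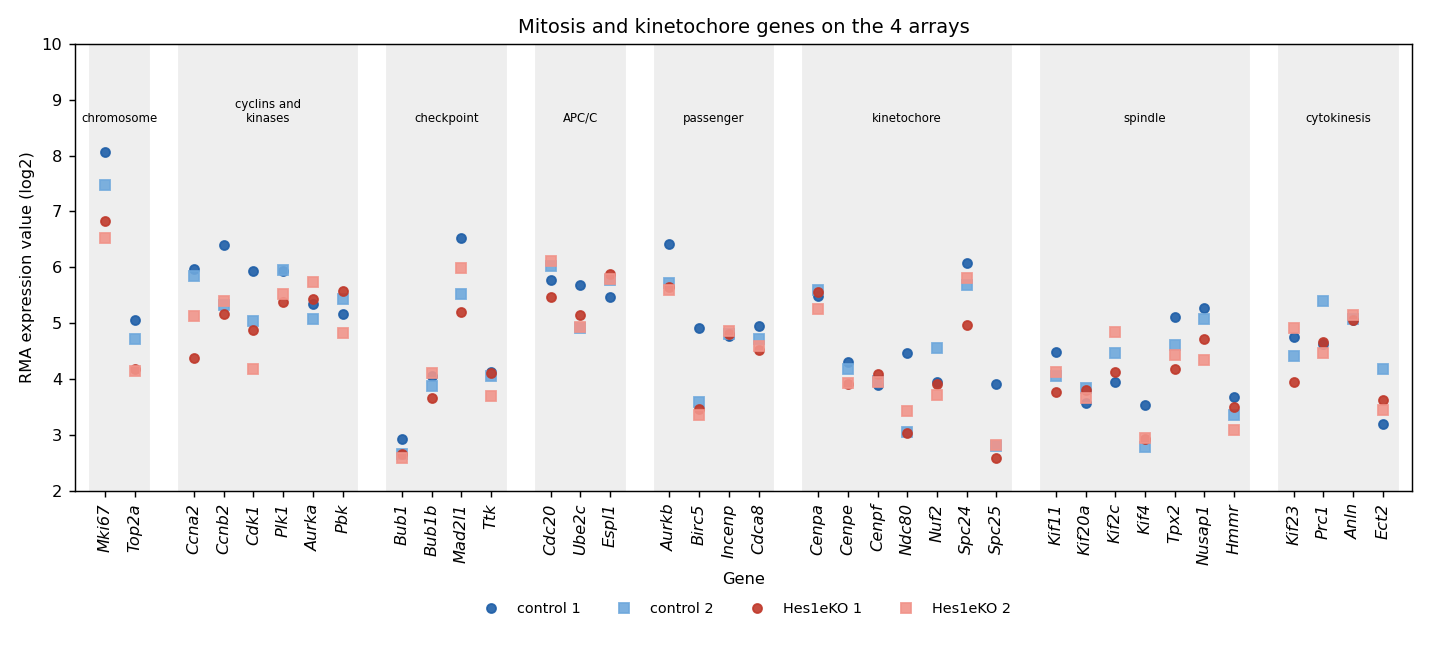
RMA expression values (log2, y axis) of the 37 mitosis and kinetochore genes (x axis, grouped by role in grey bands) on the 2 control arrays (blue) and the 2 *Hes1*eKO arrays (red), with circles for replicate number 1 and squares for number 2. *Mki67*, *Top2a*, *Ccna2* and *Nusap1* have both red points below both blue points, and control replicate 1 (dark blue circle) is the highest point for 21 of the 37 genes.

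Among the other cyclin and kinase genes, *Cdk1* and *Plk1* had both *Hes1*eKO values below both control values, as 15.8% of all genes did, without passing the threshold. *Cdk1*, the gene of the kinase that drives mitotic entry, had 5.94 and 5.04 in control and 4.87 and 4.18 in *Hes1*eKO HFSCs (log2 fold change −0.96, standard error 0.42, interval −2.09 to 0.17). Its replicates were spread widely in both genotypes. *Plk1*, the gene of Polo-like kinase 1, had 5.93 and 5.96 in control and 5.38 and 5.53 in *Hes1*eKO HFSCs, so that its replicates were close, and it missed the threshold by its fold of 1.41 and not by its unadjusted p of 0.0411 by limma (log2 fold change −0.50, standard error 0.17). *Ccnb2*, which encodes cyclin B2, had 6.40 and 5.33 in control and 5.17 and 5.39 in *Hes1*eKO HFSCs. Control replicate 1 alone stood apart for it, and its log2 fold change of −0.59 (standard error 0.41) was −0.06 without that array. *Aurka*, the gene of the centrosomal Aurora kinase, went the other way, with 5.35 and 5.07 in control and 5.43 and 5.74 in *Hes1*eKO HFSCs (log2 fold change 0.38, interval −0.21 to 0.96). *Pbk*, a mitotic kinase gene, had −0.10. The median over the 6 genes was −0.54.

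The 4 spindle checkpoint genes had log2 fold changes of −0.44 to −0.09, and none passed. *Mad2l1*, whose product MAD2 binds and restrains CDC20, had 6.53 and 5.52 in control and 5.19 and 5.98 in *Hes1*eKO HFSCs, so that the order of the genotypes turned between the replicate numbers (−1.34 within number 1 and 0.46 within number 2). *Ttk*, which encodes the MPS1 kinase, had 4.12 and 4.06 in control and 4.11 and 3.70 in *Hes1*eKO HFSCs (−0.18). *Bub1*, a kinetochore kinase gene, was the dimmest of them, with 2.92 and 2.66 against 2.66 and 2.59, where control replicate 2 and *Hes1*eKO replicate 1 are equal at this rounding. *Bub1b*, which encodes BUBR1, had −0.09. *Bub1*, *Bub1b* and *Ttk* were removed by a filter on dim clusters, which asked for values over 4.38, the median of the whole table, on 2 or more arrays.

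The 3 genes of the anaphase promoting complex and mitotic exit had a median of −0.11. *Cdc20*, which encodes its mitotic activator, had 5.78 and 6.03 in control and 5.47 and 6.11 in *Hes1*eKO HFSCs (−0.11), with full overlap. *Espl1*, the gene of separase, had 5.47 and 5.77 in control and 5.88 and 5.79 in *Hes1*eKO HFSCs (log2 fold change 0.22, interval −0.31 to 0.75). With *Aurka* it was 1 of 2 genes of the set whose *Hes1*eKO values lay above both control values, as for 16.2% of all genes. *Ube2c*, which encodes the ubiquitin-conjugating enzyme of the complex, had −0.27.

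The chromosomal passenger complex corrects wrong attachments at the centromere. Of its genes, *Aurkb*, *Birc5* and *Cdca8* had both *Hes1*eKO values below both control values, as 15.8% of all genes did. None of the genes of the complex passed the threshold. *Aurkb*, the gene of its kinase, had 6.41 and 5.71 in control and 5.64 and 5.60 in *Hes1*eKO HFSCs (log2 fold change −0.44, standard error 0.29). *Birc5*, the gene of survivin, had 4.92 and 3.59 against 3.46 and 3.35 (−0.85, standard error 0.48, interval −2.15 to 0.45). Most of both differences came from control replicate 1, without which they were −0.09 and −0.19. *Cdca8*, which encodes borealin, had 4.94 and 4.71 against 4.52 and 4.59 (−0.27). *Incenp*, the gene of the scaffold of the complex, was nearly level, with 4.77 and 4.80 in control and 4.80 and 4.86 in *Hes1*eKO HFSCs (0.04, interval −0.40 to 0.49).

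Of the 7 centromere and kinetochore genes, 6 had a negative log2 fold change (against 50.5% of all genes), the median was −0.44, and none passed. *Spc24*, which encodes a subunit of the NDC80 complex that grips microtubules, had 6.08 and 5.69 in control and 4.97 and 5.80 in *Hes1*eKO HFSCs (−0.50, standard error 0.35). The other subunits of that complex, *Spc25* (−0.65), *Ndc80* (−0.52) and *Nuf2* (−0.44), had the same sign with overlapping or widely spread arrays. *Nuf2* alone of the 4 had no overlap, with 3.95 and 4.56 in control and 3.91 and 3.72 in *Hes1*eKO HFSCs. For *Spc24*, *Spc25* and *Ndc80* the difference lay within replicate number 1 (−1.11, −1.32 and −1.43) and was 0.11, 0.03 and 0.38 within number 2, while for *Nuf2* it lay within number 2 (−0.84, against −0.04). *Cenpe*, the gene of a kinetochore motor, had 4.31 and 4.18 in control and 3.90 and 3.92 in *Hes1*eKO HFSCs, with close replicates and no overlap (−0.34, standard error 0.17). *Cenpa*, which encodes the centromeric histone, had 5.49 and 5.60 against 5.56 and 5.26 (−0.13), and *Cenpf*, a large kinetochore protein gene, had 0.08. Of the 7 genes, 2 were bright enough to pass the filter on dim clusters.

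Among the 7 genes of spindle motors and spindle assembly, *Tpx2*, which encodes the spindle activator of Aurora A, came nearest to *Nusap1*. It had 5.11 and 4.60 in control and 4.18 and 4.42 in *Hes1*eKO HFSCs, without overlap (−0.56, standard error 0.25, interval −1.24 to 0.13). The kinesin genes *Kif11* (−0.32), *Kif4* (−0.22), *Kif20a* (0.03) and *Kif2c* (0.28) and the spindle protein gene *Hmmr* (−0.22) had overlapping arrays. The 4 genes of the central spindle and cytokinesis had a median of −0.14, with no gene free of overlap. *Prc1*, which encodes the bundler of the central spindle, had 4.63 and 5.40 in control and 4.67 and 4.46 in *Hes1*eKO HFSCs (−0.45). *Anln*, the gene of anillin, had 5.06 and 5.08 against 5.05 and 5.15 (0.03, interval −0.42 to 0.48), and *Kif23* and *Ect2*, whose products position the cleavage furrow, each had −0.14.

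**Figure D3:**
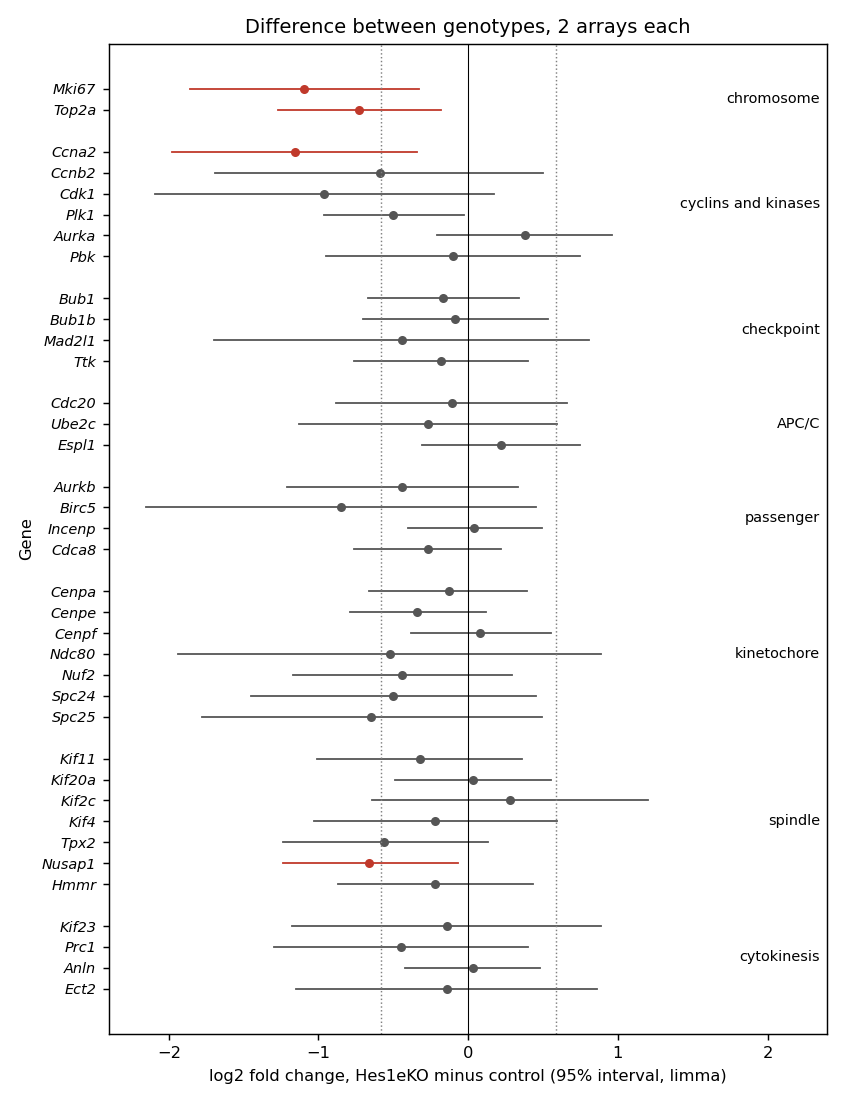
Log2 fold change (x axis, *Hes1*eKO minus control, 2 arrays each) of the 37 mitosis and kinetochore genes (y axis, grouped by role), with 95% confidence intervals by limma. Red points are the 4 genes past the study threshold, dotted lines mark a fold of 1.5 in either direction, and 30 of the 37 points lie to the left of 0.

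Taken as a list, 30 of the 37 genes had a negative log2 fold change (81.1%), against 50.5% of all genes, and the median was −0.27, against 0.00 over all genes. In 13 genes (35.1%) both *Hes1*eKO values lay below both control values, against 15.8% of all genes, and in 2 (5.41%) both lay above, against 16.2%. The median value of the 37 genes was 4.94 and 4.72 in control against 4.37 and 4.46 in *Hes1*eKO HFSCs, where that of all genes was 4.80 to 4.83. Of the 37 genes, 23 passed the filter on dim clusters. These are descriptions of a list chosen with results of these arrays known, and no test was made over it.

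The list's difference was not even over the arrays. Control replicate 1 held the highest of the 4 values for 21 genes (56.8%, against 28.8% of all genes), *Hes1*eKO replicate 1 the lowest for 15 (40.5%, against 27.3%) and *Hes1*eKO replicate 2 the lowest for 13 (35.1%, against 20.8%). Within replicate number 1 the median difference was −0.42 and 27 genes were negative (73.0%, against 50.2% of all genes), and within number 2 it was −0.11 with 21 negative (56.8%, against 48.2%). Both differences were negative for 15 genes (40.5%, against 24.9%) and positive for 4 (10.8%, against 26.0%). The 4 genes past the threshold were lower within both numbers, by 1.25 and 0.95 for *Mki67*, 0.88 and 0.58 for *Top2a*, 1.60 and 0.73 for *Ccna2* and 0.56 and 0.75 for *Nusap1*. *Cdk1* (−1.07 and −0.86) and *Plk1* (−0.56 and −0.43) were likewise lower in both. For all of these genes this follows from the lack of overlap between the genotypes. Without control replicate 1 the median of the list was −0.10.

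**Figure D4:**
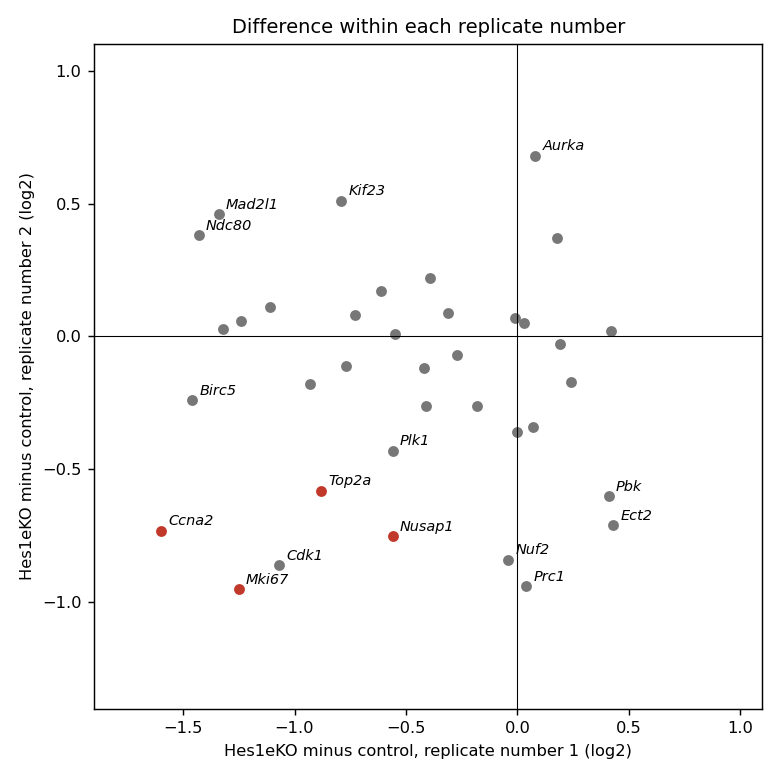
Difference between *Hes1*eKO and control (log2) within replicate number 1 (x axis) and within replicate number 2 (y axis), 1 point for each of the 37 mitosis and kinetochore genes. The 4 genes past the study threshold (red), *Cdk1* and *Plk1* lie at lower left, negative within both numbers, which follows from the lack of overlap between their genotypes. *Mad2l1*, *Ndc80* and *Kif23* are negative within number 1 and positive within number 2.

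Many but not all markers of immune cells were, like most of these genes, highest on control replicate 1. This held for 4 of 7 T cell genes and 5 of 7 Langerhans cell and macrophage genes (against 28.8% of all genes). Of 10 listed T cell genes 7 were measured, and all 7 had a negative log2 fold change (against 50.5% of all genes). Of the 7, 1 passed the threshold (against 0.875% of all genes). This was *Cd7*, a T and NK cell receptor gene, with 7.07 and 5.80 in control and 3.43 and 4.13 in *Hes1*eKO HFSCs (−2.66), a call that the methods' t-test did not make. The T cell receptor complex gene *Cd3g* had 7.08, 5.23, 3.51 and 4.97 in the same order, and *Ptprc*, the pan-leukocyte gene CD45, had 3.77, 2.67, 2.47 and 2.50. *Cd3d* (−1.05), *Cd3e* (−0.47), *Thy1* (−0.31) and *Il2rb* (−0.06) overlapped between the genotypes. Within replicate number 2, *Cd3d* (0.36) and *Il2rb* (0.09) were higher in *Hes1*eKO HFSCs, and the other 5 of the 7 were lower. The summed linear level of the 7 T cell genes was 411.9 and 215.9 in control against 99.9 and 153.9 in *Hes1*eKO HFSCs. That of 7 Langerhans cell and macrophage genes was 1891.5 on control replicate 1 and 320.5 to 442.0 on the other 3 arrays. It was led by the MHC class II genes *H2-Ab1* (10.42, then 6.92, 7.98 and 6.85) and *H2-Aa* (8.26, then 5.02, 5.96 and 4.71). Of these 7 genes, 6 had a negative log2 fold change (against 50.5% of all genes), *Itgam* had 0.30, and none passed. RMA values have no true zero, so no marker can be placed at 0.

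The summed level of *Mki67*, *Top2a*, *Ccna2* and *Nusap1* was 403.9 and 294.3 in control against 178.3 and 164.0 in *Hes1*eKO HFSCs, and that of the other 33 genes of the set was 1144.6 and 946.6 against 828.8 and 905.4. The 4 genes were picked as lower on these arrays, so the separation of their sum, led by *Mki67*, follows from that choice. On control replicate 1 the mitosis genes and both immune lists were highest. On control replicate 2 the T cell list (215.9) and *Mki67* lay above both *Hes1*eKO arrays, while the Langerhans cell list lay between them. The part of immune cells in the values of the mitosis genes was not tested. The summed level of 8 hair germ and matrix markers went with genotype the other way, at 2040.8 and 2035.1 in control against 3153.9 and 2300.8 in *Hes1*eKO HFSCs. Of these, 5 had a positive and 3 a negative log2 fold change, where 50.5% of all genes were negative. Of the 8, 1 passed the threshold as higher (against 0.789% of all genes). This was *Dlx3*, a transcription factor gene of the hair matrix, with 6.93 and 6.51 against 8.18 and 7.67 (1.20, standard error 0.28). That call ended with the methods' t-test, and also when control replicate 2 (0.99) or *Hes1*eKO replicate 1 (0.95) was left out. *Cdh3*, the gene of the hair germ marker P-cadherin, was the brightest of the 8 and led their summed level. It had 9.99 and 10.14 against 10.94 and 10.25, without overlap and without passing (0.53). *Lgr4* (−0.25), *Shh* (−0.12) and *Gata3* (−0.12) were negative, and *Gata3* had both *Hes1*eKO values below both control values. The part of hair germ and matrix cells was not tested either. The summed levels of dermal fibroblast, differentiated epidermis and bulge markers did not separate the genotypes. In control against *Hes1*eKO HFSCs they were 322.7 and 2167.9 against 319.5 and 1455.4 for dermal fibroblasts. They were 1878.1 and 2090.1 against 1119.3 and 3702.7 for differentiated epidermis, and 11562.6 and 13697.9 against 12462.9 and 13315.0 for the bulge. Single genes did separate without passing the threshold. Both *Hes1*eKO values lay above both control values for the bulge genes *Tcf7l1* (0.75), *Lgr5* (0.43) and *Lhx2* (0.07) and the epidermis gene *Ivl* (0.54), as for 16.2% of all genes. Of the 9 bulge genes 7 had a positive log2 fold change, where 50.5% of all genes were negative.

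**Figure D5:**
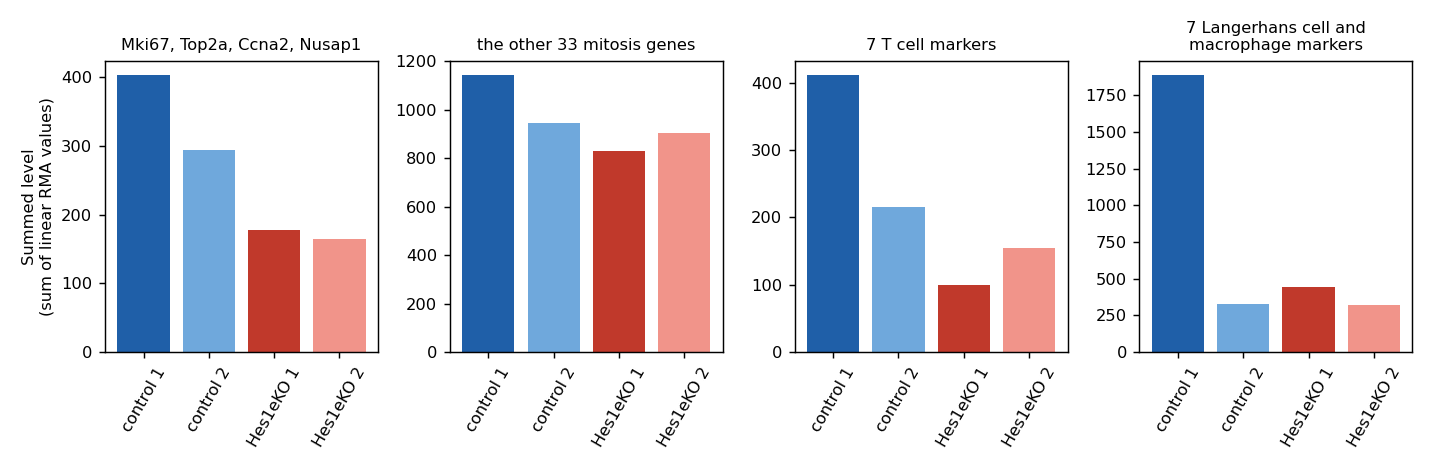
Summed level (sum of linear RMA values, y axes from 0 with a scale of their own) on each of the 4 arrays (x axes), for the 4 mitosis genes past the threshold, the other 33 genes of the set, 7 T cell markers and 7 Langerhans cell and macrophage markers. The 4 genes and the T cell markers are lower on both *Hes1*eKO arrays than on both control arrays, and the Langerhans cell markers stand out on control replicate 1 alone (1891.5). The 4 genes were picked as lower on these same arrays, so the separation of their sum follows from that choice.

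Other genes of the same processes were looked at as 3 lists with 90 measured genes in all, 29 of kinetochore and centromere, 29 of kinases, regulators and the anaphase promoting complex, and 32 of spindle, condensin and cytokinesis. Of the 90, 4 were lower past the threshold (against 0.875% of all genes) and 0 higher, 55 were negative (against 50.5%), 23 had both *Hes1*eKO values below both control values (against 15.8%) and 8 had both above (against 16.2%), and the median log2 fold change was −0.10. *Cks2*, the gene of a small subunit of cyclin-dependent kinases, had 5.68 and 5.08 in control and 4.36 and 4.49 in *Hes1*eKO HFSCs (−0.96, standard error 0.27), and 3 further clusters of its symbol, with values equal to each other, had −1.48 without passing. *Pmf1*, which encodes a subunit of the MIS12 complex at the base of the kinetochore, had close replicates at 6.59 and 6.65 against 5.94 and 6.07 (−0.62, standard error 0.17). *Depdc1b* (4.12 and 4.64 against 3.59 and 3.61, −0.78) and the abscission gene *Cep55* (3.73 and 3.67 against 2.99 and 3.22, −0.60) were called among dim clusters that the filter removed. The calls of *Pmf1* (−0.68 to −0.55) and *Cep55* (−0.71 to −0.49) ended without any 1 of the 4 arrays, that of *Cks2* without control replicate 1 (−0.66), *Hes1*eKO replicate 1 (−0.89) or *Hes1*eKO replicate 2 (−1.02), and that of *Depdc1b* without *Hes1*eKO replicate 1 (−0.77), control replicate 2 (−0.52) or *Hes1*eKO replicate 2 (−0.79). The methods' t-test did not call *Cks2* or *Depdc1b*, and without *Hes1*eKO replicate 1, 0 of the 90 genes passed.

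Of 21 regulators of mitotic transcription, 1 was lower (against 0.875% of all genes) and 1 higher (against 0.789%) past the threshold. The list was balanced in sign, with 11 negative and 10 positive log2 fold changes (50.5% of all genes were negative). *E2f8*, an atypical E2F gene whose product represses E2F targets, had 5.71 and 4.56 in control and 4.02 and 3.64 in *Hes1*eKO HFSCs (−1.30, standard error 0.44), and its call ended with the methods' t-test, without control replicate 1 (−0.73), without *Hes1*eKO replicate 1 (−1.49) and without *Hes1*eKO replicate 2 (−1.11). *Rb1*, the retinoblastoma gene, which restrains entry into S phase, was higher, with 7.65 and 7.76 against 8.77 and 8.27 (0.82, standard error 0.24). A dimmer cluster of *Rb1* had 1.01 without passing, and the call ended with the methods' t-test, without control replicate 1 (0.76), without control replicate 2 (0.87) and without *Hes1*eKO replicate 1 (0.57). Among activators of G2 and M genes, *Foxm1* had a log2 fold change of −0.23 with a wide interval (−1.15 to 0.70). *Mybl2* had 0.01 (interval −0.51 to 0.54), and its sign differed in its other cluster (−0.26). Neither passed, nor did *E2f1* (−0.29) and *E2f7* (−0.35).

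The DNA replication genes, active in S phase before mitosis, were set beside the mitosis genes as the group most like them. Of 38 measured, 1 was lower past the threshold (against 0.875% of all genes) and 0 higher, 28 were negative (against 50.5%), 14 had both *Hes1*eKO values below both control values (against 15.8%), and the median was −0.24, near the −0.27 of the mitosis genes. The median difference was −0.43 within replicate number 1 and 0.01 within number 2, and control replicate 1 was highest for 22 genes (against 28.8% of all genes). The gene past the threshold was *Tk1*, the thymidine kinase gene, with 6.60 and 6.34 in control and 5.80 and 5.81 in *Hes1*eKO HFSCs (−0.66, standard error 0.19), whose call ended without control replicate 1 (−0.53), *Hes1*eKO replicate 1 (−0.66) or *Hes1*eKO replicate 2 (−0.67). The difference between the lists was not tested.

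The differences between genotypes were last read by promoter class. The 21 genes with both motifs had a median log2 fold change of −0.22, with a range from −1.10 (*Mki67*) to 0.38 (*Aurka*). The 4 genes with neither, *Birc5*, *Mad2l1*, *Nuf2* and *Nusap1*, had a median of −0.55, the 2 with CCAAT alone (*Bub1* and *Cenpe*) had −0.26, and the 3 with TTTGAA alone (*Anln*, *Kif2c* and *Ndc80*) had 0.03. These medians describe small groups and were not tested against each other.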

How the data were processed

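The authors made RMA values, deposited on the log2 scale, with Affymetrix Expression Console 1.4.1 per the submitters' processing notes, which also name Partek. RMA had already corrected background, normalized the arrays and summarized probes per transcript cluster. All 41345 clusters were used as deposited. The probe annotation gave 1 symbol for 23521 clusters, of which 23328 matched the GRCm38.p6 gene table, and the brightest cluster by the mean of the 4 arrays stood for a gene. Genotypes were compared by lmFit and eBayes of limma 3.58.1 in R 4.3.3, tested on simulated data, without a term for replicate number, at the study threshold (fold above 1.5 and unadjusted p under 0.05), with Benjamini-Hochberg adjustment over all clusters. Within-number differences subtract the arrays that share a replicate number. The labels call the arrays of a genotype biologic replicates from different mice. Of the genes of the set, array values are given for those past the threshold, those without overlap and the 2 brightest of each role group. Of the other lists, members past the threshold are named, with *Hes1*, *Foxm1*, *Mybl2*, *E2f1*, *E2f7* and *E2f8* in any case. Of the marker lists, the members past the threshold and the genes that lead a list's sum or define its cells are named. Further members of some lists are named for their direction, overlap or sex linkage. All but those past the threshold were chosen after their values were seen. The members and lists were chosen with earlier results of these data known. The comparison was repeated with the t-test of the methods (the methods' t-test), with a block for the replicate number, with limma-trend, after quantile normalization or median centring of the arrays, with a filter on dim clusters (above 4.38 on at least 2 arrays), with the most extreme or the mean cluster of a gene, and with each array left out. Promoters were the first listed per gene in RefSeq, and motifs were exact letters. Sequences were searched with Python 3.11.15 and figures drawn with matplotlib 3.10.9.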

Additional observations from a re-analysis of the deposited data

How the results depend on the processing

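The number of mitosis genes past the threshold stayed at 4, the same genes, with limma-trend, quantile normalization, median centring and the filter on dim clusters. Each gene of the set has 1 cluster, so the other choices of cluster could not change it. It was 0 by the methods' t-test (which called 0.37% of all genes lower) and 1 to 9 with an array left out. It was 1 without *Hes1*eKO replicate 2 (against 1.73% of all genes), 3 without *Hes1*eKO replicate 1 (0.505%), 2 without control replicate 1 (1.23%) and 9 without control replicate 2 (2.08%), where 2 of the 9 were among the 4. The median log2 fold change of the set was −0.44 over the 23 genes that passed the dim filter and −0.39 to −0.10 with an array left out. For the other mitosis lists the count of 4 became 2 by the methods' t-test, 2 with the dim filter and 0 to 6 with an array left out, and for the DNA replication genes the count of 1 became 0 to 4, with 1 higher gene in place of the lower one without control replicate 1.

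With an array left out, 14 genes of the set changed sign in at least 1 fit, over the ranges −0.95 to 0.06 for *Mad2l1*, −0.66 to 0.12 for *Ube2c*, −1.23 to 0.18 for *Ndc80*, −0.10 to 0.16 for *Kif20a*, −0.59 to 0.15 for *Kif4*, −0.63 to 0.34 for *Kif23* and for *Ect2*, −0.47 to 0.28 for *Pbk*, −0.39 to 0.02 for *Ttk*, −0.28 to 0.02 for *Cenpa*, −0.08 to 0.63 for *Kif2c*, −0.02 to 0.08 for *Anln*, −0.31 to 0.13 for *Bub1b* and −0.43 to 0.21 for *Cdc20*. *Foxm1* ranged from −0.61 to 0.16 and *Mybl2* from −0.14 to 0.17, and *Mybl2* was −0.26 by its most extreme cluster and −0.12 by the mean of its clusters. The cause of these changes was not tested.

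With the replicate number as a block, 5 genes of the set passed, the 4 and *Cdk1*, against 1.18% of all genes. The deviations of same-numbered arrays from their group means correlated at 0.143 over all clusters, and *Xist* followed the number. The study speaks of pairs and of littermates, but no source says that a shared number marks a pair, so the block was kept as an alternative. The number of arrays limits the precision, and dim clusters such as *Bub1*, *Spc25* and *Kif4* lie near the low end of the values.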
